A study of Homo sapiens with 6 samples.

Results

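Small structural RNAs of the nucleus and cytoplasm were followed in a comparison of 2 conditions of a human prostate cancer cell line. The set comprised the genes whose symbols carry the names of the spliceosomal U RNAs (RNU, RNVU, or a bare U and a number), of 7SK, 7SL and the Y RNAs, of RMRP and RPPH1, or of the vault RNAs. Of the 6018 genes in the authors' deposited table, 150 met this rule, 20 of them through the symbol of their Ensembl identifier because the table gave none. They comprised 43 spliceosomal RNAs, 66 genes of the 7SL family, 23 of the 7SK family, 14 Y RNAs, and 4 copies of U3 and U7. No RMRP, RPPH1 or vault RNA gene was listed.

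The cells were C4-2B (C42B in the labels), an established line descended from LNCaP through the C4-2 derivative, and a subline (C42-B-Abi) selected in abiraterone, an inhibitor of the androgen-synthesis enzyme CYP17A1. The labels give 3 libraries for each line. The parental cells, given as passage 0, were carried in 1% DMSO beside the selection; the subline, given as passage 15 to 18, had grown in abiraterone raised from 1 to 20 µM during at least 6 months and was held at 5 µM. Both were grown in the same medium with 10% fetal bovine serum, and an exposure to 10 µM abiraterone ahead of RNA extraction is mentioned without making clear whether it applied to both. The subline is a single selected population, and nothing in the labels describes the 3 libraries of a line as separate cultures, so the listed errors measure the spread between libraries, which may be technical. Each library came from 1 µg of total RNA and was read in single 50-base reads.

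The authors' deposited table contrasts a condition C (control) with a condition V (vehicle). Its header does not tie either letter to a cell line: parental titles carry a V, while the parental cells are also named as the control. Each direction is therefore stated by its letter. An adjusted p below 0.05 in the table was taken as a call. A fold change is on the log2 scale, positive when C exceeds V, and stands with its standard error (±); both come from the authors' DESeq2 Wald test with Benjamini-Hochberg adjustment. The listed mean is the average normalised count over all libraries. Levels in C and in V were derived as the pair of values with that average and that ratio; they carry no error and assume equally many libraries on each side. The table has no value for any single library, so the values of individual samples cannot be shown, and depth is unknown. Every listed gene has a p-value of at most 0.05 and a log2 fold change of 1.20 or more in size, so that a gene's absence from it says nothing about its level.

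The spliceosome removes introns from messenger RNA precursors with small nuclear RNAs at its core: U1 pairs with the 5′ splice site, U2 with the branch point, U4 delivers U6 in an inactive duplex, U6 forms the catalytic centre and U5 holds the exon ends. U4atac and U6atac take the places of U4 and U6 in the minor spliceosome. 7SK holds the elongation kinase P-TEFb in an inactive particle, 7SL is the scaffold of the signal recognition particle, and Y RNAs bind the Ro60 protein and take part in RNA quality control and DNA replication. RNA polymerase II makes most spliceosomal RNAs; RNA polymerase III makes U6, U6atac, 7SK, 7SL and the Y RNAs. None of these RNAs ends in a poly(A) tail, and each family has left many truncated or mutated pseudogene copies across the human genome, so that short reads from a gene may also match its copies.

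Sequence relations among the members are shown first because the values below are read per copy. Sequences and positions are those of GENCODE release 29 (GRCh38), matched by Ensembl identifier for all 150 members and written as DNA; the build behind the authors' deposited table is not given in the sources used here. U1 is shown because copies with one sequence were listed with unlike values. RNU1-4 (chr1:16740516-16740679, plus strand), RNVU1-29 (chr1:146376807-146376970, plus strand) and RNU1-27P (chr14:34546714-34546877, plus strand) have a single sequence of 164 bases, which 8 GENCODE genes carry. Capitals mark the bases that pair with the 5′ splice site in RNU1-4, and the bases that differ from RNU1-4 in the others.
RNU1-4: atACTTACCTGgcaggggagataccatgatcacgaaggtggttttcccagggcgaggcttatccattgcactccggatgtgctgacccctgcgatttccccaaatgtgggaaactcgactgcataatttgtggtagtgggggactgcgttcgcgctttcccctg
RNVU1-31: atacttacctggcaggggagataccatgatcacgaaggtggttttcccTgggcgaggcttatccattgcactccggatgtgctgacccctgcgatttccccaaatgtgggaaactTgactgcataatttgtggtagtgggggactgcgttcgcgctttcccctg
RNVU1-28: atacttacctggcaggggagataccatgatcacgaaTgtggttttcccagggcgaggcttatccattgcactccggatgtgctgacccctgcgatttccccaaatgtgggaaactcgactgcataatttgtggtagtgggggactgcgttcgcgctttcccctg
RNVU1-7: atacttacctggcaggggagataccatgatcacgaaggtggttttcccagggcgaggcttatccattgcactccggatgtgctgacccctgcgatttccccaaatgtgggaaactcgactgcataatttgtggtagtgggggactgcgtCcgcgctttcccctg
RNU1-67P: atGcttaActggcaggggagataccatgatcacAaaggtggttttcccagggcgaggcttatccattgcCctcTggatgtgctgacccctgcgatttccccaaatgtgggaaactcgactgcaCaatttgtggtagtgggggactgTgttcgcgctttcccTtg
With positions counted from 1 at the 5′ end, RNVU1-31 (chr1:145465617-145465780, minus strand) differs by A49T and C116T, RNVU1-28 (chr1:144560666-144560829, minus strand) by G37T, and RNVU1-7 (chr1:148038753-148038916, minus strand) by T150C. RNU1-67P (chrX:119423742-119423905, plus strand) has 8 differences, of which A3G and C8A lie in the bases that pair with the splice site.

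U2 and U4 are shown to set apart a class whose copies are identical (U2) from one whose genes can be distinguished (U4). RNU2-1 (chr17:43233787-43233977, minus strand) shares its sequence with 5 further listed copies on chromosome 17. Capitals mark the branch point recognition bases in RNU2-1 and, in RNU4-2 (chr12:120291763-120291903, minus strand), the bases that differ from RNU4-1 (chr12:120293097-120293237, minus strand).
RNU2-1: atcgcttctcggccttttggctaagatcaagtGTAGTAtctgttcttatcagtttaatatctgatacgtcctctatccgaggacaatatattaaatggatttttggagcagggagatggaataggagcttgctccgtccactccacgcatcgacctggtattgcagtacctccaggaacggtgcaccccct
RNU4-1: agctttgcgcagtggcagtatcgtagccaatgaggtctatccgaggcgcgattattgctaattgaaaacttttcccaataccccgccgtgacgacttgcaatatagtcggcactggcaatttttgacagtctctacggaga
RNU4-2: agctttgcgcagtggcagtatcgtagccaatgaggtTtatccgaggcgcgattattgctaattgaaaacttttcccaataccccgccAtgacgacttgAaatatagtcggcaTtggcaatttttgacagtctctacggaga
RNU4-2 differs from RNU4-1 at 4 positions, C37T, G88A, C99A and C113T.

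For the RNA polymerase III families, RNY4 (chr7:148963315-148963410, plus strand) is shown as an annotated gene on the V side, and RN7SKP185 as the 7SK copy with the highest listed mean. Capitals mark, in the last 300 bases of RN7SKP185 (chr20:37975156-37975455, minus strand), those in a run of at least 50 that also occurs in RN7SK.
RNY4: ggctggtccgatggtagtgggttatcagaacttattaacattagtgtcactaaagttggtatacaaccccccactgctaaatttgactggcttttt
RN7SKP185: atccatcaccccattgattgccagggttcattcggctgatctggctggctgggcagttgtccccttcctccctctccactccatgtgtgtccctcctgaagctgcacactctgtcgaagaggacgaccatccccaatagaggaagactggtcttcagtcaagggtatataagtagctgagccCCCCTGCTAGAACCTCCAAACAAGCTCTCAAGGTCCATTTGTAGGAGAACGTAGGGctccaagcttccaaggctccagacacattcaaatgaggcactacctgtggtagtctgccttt
The shared run covers 56 bases of RN7SKP185.

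Most of the listed RNAs were higher in C. Of the 150 members in the authors' deposited table, 126 were called, 105 with the higher level in C and 21 with the higher level in V; over all 6018 listed genes, 89.4% were called, 46.0% toward C and 43.4% toward V. The members' shares were 70.0% and 14.0%. Listed genes other than protein-coding ones leaned the same way, with 86.5% called, 60.1% toward C and 26.4% toward V, so a lean toward C was not particular to these families. The median listed log2 fold change of the members in the authors' deposited table was 3.41, against 1.26 over all listed genes and 1.91 over the listed genes that are not protein-coding. Their listed means were low, with a median of 7.0 normalised counts against 20.8 for all listed genes, and their median standard error was 0.97 against 0.54. For 75 of the 150 the lower of the derived levels was under 1 normalised count, where the size of a fold change is poorly determined. Of the 24 members that were not called, 23 had a positive fold change.

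Small nucleolar and Cajal body RNAs outside the members, another group without poly(A) tails, moved with this result. Of these, 57 were listed in the authors' deposited table and 52 called, all 52 higher in C. Their median log2 fold change was 2.56 over the 57. The 2 listed U3 copies, small nucleolar RNAs among the members, were left out of these counts, and 1 of them was called higher in V. The extraction text names the TruSeq V2 kit and the stranded total RNA kit of one maker, the former built on poly(A) selection, and does not assign libraries to either. The part of the kits in these results was not tested.

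**Figure D1:**
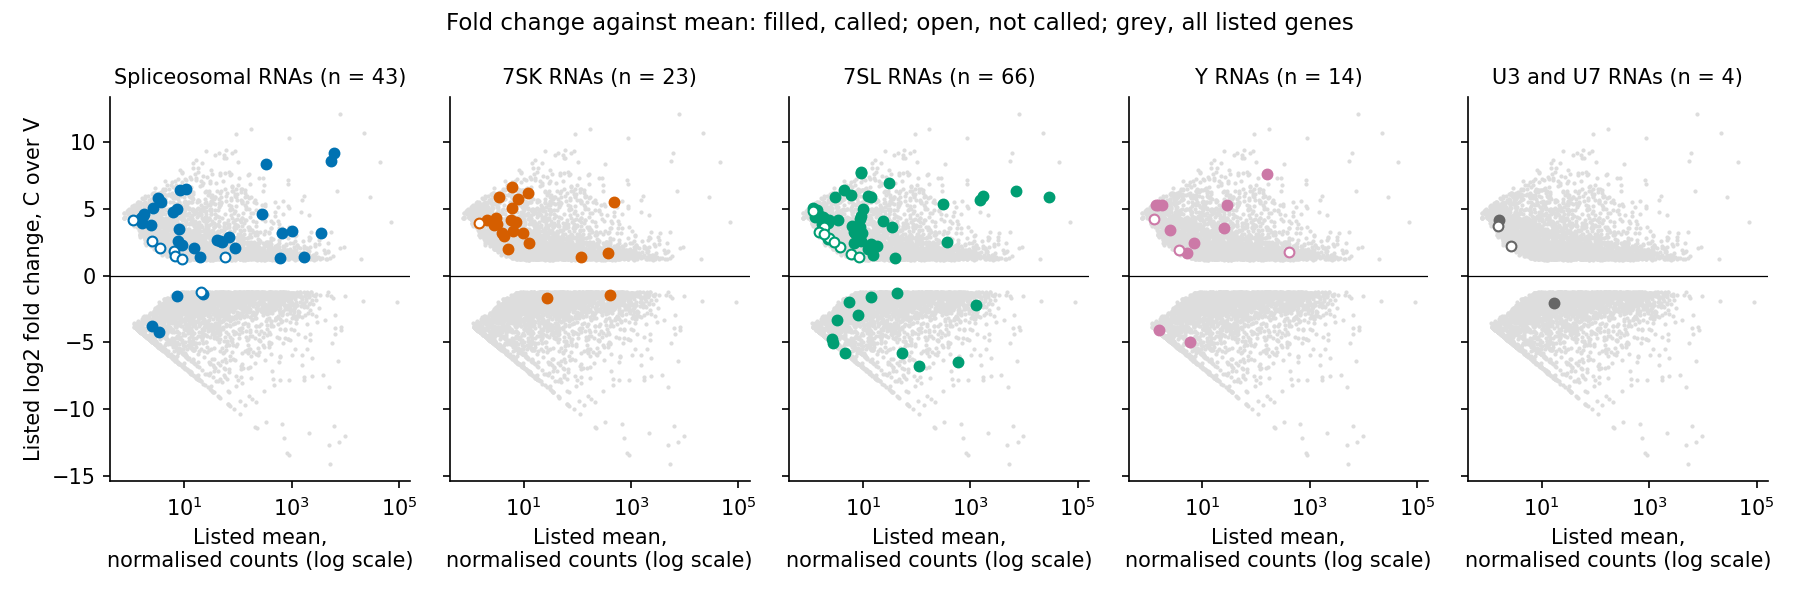
Each point is 1 listed gene, with its mean in normalised counts (log scale) on the x axis and its listed log2 fold change of C over V on the y axis; members are coloured by family, filled when called and open when not, over all 6018 listed genes in grey. Members above the zero line are higher in C; the 105 called there outnumber the 21 called below it, and the empty band around zero is the table's own fold limit.

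Spliceosomal RNAs had 35 of 43 listed members called, 31 of them higher in C and 4 higher in V. Beside this and each class below stand 89.4% of all listed genes called, 46.0% toward C and 43.4% toward V. For listed genes other than protein-coding ones these shares were 86.5%, 60.1% and 26.4%. The number called in a class therefore says little about that class. The 4 higher in V were RNVU1-22, RNU6-4P, RNU6-6P and RNU6-46P, so that the departures from the common direction lay in the U1 and U6 classes.

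Among the U1 RNAs, 13 of 15 listed members were called higher in C and 1 was called higher in V. RNVU1-29 was listed in the authors' deposited table with a mean of 6043 and a log2 fold change of 9.22 ± 0.30 (adjusted p = 1.88e-200), for derived levels of 12066 in C and 20.2 in V. RNU1-4 was listed there with a mean of 5478 and 8.58 ± 0.37 (adjusted p = 9.46e-117), or 10927 in C and 28.6 in V. RNU1-27P, a pseudogene by name with the same 164 bases, had a mean of 3452 and 3.20 ± 0.33 in the authors' deposited table (adjusted p = 1.38e-21), or 6225 in C and 678 in V. Levels of these 3 loci of one sequence thus lay between 6225 and 12066 in C and between 20.2 and 678 in V. The 95% intervals built from the listed standard errors ran from 8.63 to 9.82 for RNVU1-29 and from 2.56 to 3.84 for RNU1-27P; the difference between them was not tested. Summed over the 3 loci, the derived levels were 29218 in C and 727 in V, a log2 ratio of 5.33. Of the 8 genes with this sequence only these 3 were listed. The list's limits leave out loci with small changes, so the ratio may overstate the change of the sequence. RNU1-1, RNU1-2 and RNU1-3, annotated U1 genes on chromosome 1, were not listed.

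The variant U1 genes, in which a few bases differ from the main sequence, also ran mostly toward C. RNVU1-31 stood in the authors' deposited table at 4.62 ± 0.42 (536 in C, 21.7 in V), RNVU1-7 at 2.59 ± 0.32 (80.7 in C, 13.4 in V) and RNVU1-28 at 2.10 ± 0.27 (140 in C, 32.5 in V). RNVU1-33 was called with a fold change of 5.52 ± 1.40 in the authors' deposited table, but its derived level in V was 0.157, below 1 normalised count. RNVU1-22 was the single U1 gene called higher in V, at -1.53 ± 0.67 with an adjusted p of 0.0486 in the authors' deposited table, just inside the threshold. RefSeq types both RNVU1-22 and RNVU1-33 as pseudogenes, and their identity to the main U1 sequence was 73.7% and 74.7%.

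The U1 pseudogene copies were all called higher in C, 7 of 7. RNU1-67P, RNU1-18P and RNU1-88P hold no run of 50 bases that occurs in the transcripts of a GENCODE gene elsewhere. Genes that overlap them were not searched, and only exact matches were counted. RNU1-67P, which lies inside SLC25A43 on the same strand, was listed in the authors' deposited table with a mean of 333 and 8.36 ± 0.39 (adjusted p = 4.58e-98), for 664 in C and 2.02 in V. RNU1-11P followed at 6.46 ± 1.29 in the authors' deposited table, with a derived level in V of 0.187. The letters ACTTACCTG, which pair with the splice site, were searched on the RNA strand and were present in 10 of the 15 members, against 34.5% of the 145 GENCODE genes of the U1 family. All 10 were called higher in C, and RNU1-67P was among the 5 without them.

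The identical U2 copies that were listed had a narrow range of fold changes. Of the 9 listed U2 members, 6 were called, all higher in C. The 6 identical copies, RNU2-1 and 5 known only as U2, lie within chr17:43233787-43296615 on the minus strand, and 11 GENCODE genes carry their sequence. Their listed fold changes ran from 1.23 to 1.47, although their means ran from 6.58 to 1683. The lower end of this range is bounded by the list's own limit of 1.20. Only 6 of the 11 genes with this sequence were listed, and smaller changes of the others would not be seen. The copy starting at 43271369 had the highest mean and stood in the authors' deposited table at 1.41 ± 0.25, with 2444 in C and 921 in V. The copy starting at 43251829 was listed there at 1.30 ± 0.16 (861 in C, 349 in V), and the one starting at 43277978 at 1.36 ± 0.39 (27.9 in C, 10.8 in V). RNU2-1 itself missed the threshold, with 1.38 ± 0.68 and an adjusted p of 0.0884 in the authors' deposited table (82.9 in C, 31.8 in V). Summed over the 6 copies, the derived levels were 3438 in C and 1322 in V, a log2 ratio of 1.38. This ratio too covers listed copies only and may overstate the change of the sequence. The pseudogenes RNU2-36P, RNU2-59P and RNU2-61P were called at 6.49 ± 1.31, 3.97 ± 1.71 and 4.30 ± 1.81 in the authors' deposited table, each with a derived level in V below 1. The branch point letters GTAGTA, searched on the RNA strand, were present in 8 of the 9 members and in 58.9% of the 90 GENCODE U2 genes.

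The U4 genes RNU4-1 and RNU4-2 and the U5 genes RNU5A-1 and RNU5B-1 were called higher in C. The other annotated U5 genes, RNU5D-1, RNU5E-1 and RNU5F-1, were not listed. RNU4-2 was listed in the authors' deposited table with a mean of 1026 and 3.32 ± 0.39 (1866 in C, 187 in V), and RNU4-1 with 655 and 3.21 ± 0.37 (1182 in C, 128 in V). The pair lies side by side on chromosome 12 and had like fold changes; per kilobase of RNA, RNU4-2 had a derived level in C of 13235 and RNU4-1 of 8381. RNU5A-1 was listed at 2.94 ± 1.15 and RNU5B-1 at 2.67 ± 0.98 in the authors' deposited table, with adjusted p of 0.0271 and 0.0160. Their derived levels were 120 in C and 15.6 in V for RNU5A-1, and 69.5 in C and 10.9 in V for RNU5B-1. No pseudogene copy of U4 or U5 was listed.

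The minor spliceosome was represented by 1 gene of each of 2 classes. RNU6ATAC stood in the authors' deposited table at 2.54 ± 0.84 (85.3 in C, 14.7 in V; adjusted p = 0.00715). RNU4ATAC was listed there at 2.05 ± 0.58 (23.9 in C, 5.78 in V; adjusted p = 0.00142). RNU4ATAC holds no run of 50 bases found in the transcripts of a GENCODE gene elsewhere. Its locus lies inside a longer gene on the same strand, which the search left out, so reads of that gene may not be distinguished. No U11 or U12 gene was listed.

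U6 members were called in both directions, 6 toward C and 3 toward V of 13. The annotated gene RNU6-2 and the copies RNU6-4P and RNU6-6P have the same 107 bases, which 7 GENCODE genes carry, and all 3 had negative fold changes. RNU6-4P was called at -1.36 ± 0.39 in the authors' deposited table (12.5 in C, 32.1 in V; adjusted p = 0.00174) and RNU6-6P at -4.26 ± 1.47 (0.337 in C, 6.45 in V; adjusted p = 0.0102). RNU6-2 was not called, with -1.25 ± 0.63 and an adjusted p of 0.101 in the authors' deposited table (11.9 in C, 28.2 in V). Summed over the 3, the derived levels were 24.7 in C and 66.7 in V, a log2 ratio of -1.43. Only these 3 of the 7 genes with the sequence were listed, so its change may be overstated in size. Of the 8 U6 members under 99% identity to the annotated gene, 5 were called higher in C and 1, RNU6-46P, higher in V; the authors' deposited table gave it -3.77 ± 1.47. The called U6 copies with the highest means toward C were RNU6-1016P (2.33 ± 0.56), RNU6-681P (3.51 ± 0.70) and RNU6-33P (2.58 ± 1.01) in the authors' deposited table. RNU6-33P has 99.1% identity, as has RNU6-12P, which was not called at 2.10 ± 1.01 in the authors' deposited table. All 13 U6 members had listed means of at most 22.3.

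**Figure D2:**
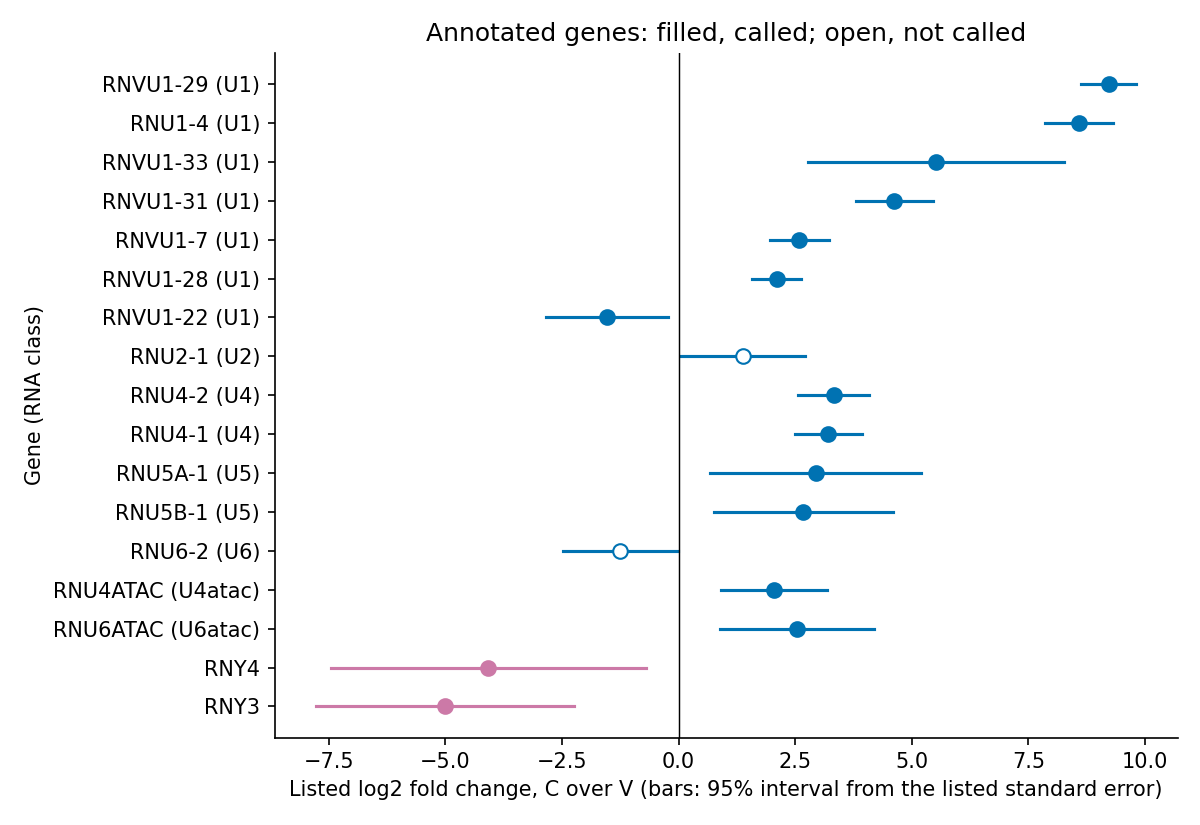
The 17 listed members that are annotated genes are shown with their listed log2 fold change of C over V (x axis) and bars for the 95% interval from the listed standard error; filled points were called and open points were not. The 12 genes called higher in C are all spliceosomal, from RNU4ATAC at 2.05 to RNVU1-29 at 9.22. On the V side lie RNVU1-22, RNY4 and RNY3, which were called, and RNU6-2 at -1.25, which was not.

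Against 89.4% called over all listed genes, the 7SK family had 22 of 23 listed members called, 20 toward C and 2 toward V. All were copies: RN7SK itself, the gene of the RNA that restrains P-TEFb, was not listed. RN7SKP185 had the highest mean, 487, and stood in the authors' deposited table at 5.49 ± 0.25 (954 in C, 21.2 in V; adjusted p = 7e-109). RN7SKP255 was listed there at 1.70 ± 0.15 (577 in C, 178 in V) and RN7SKP9 at 1.39 ± 0.20 (170 in C, 64.8 in V). The 2 on the V side were RN7SKP203, at -1.45 ± 0.35 in the authors' deposited table (215 in C, 589 in V), and a copy known only as 7SK on chromosome 17, at -1.66 ± 0.40 (13.0 in C, 41.0 in V). The 4 copies with means of 100 or more all held a run of 50 bases of RN7SK, and 1 of the 19 below did, the copy on chromosome 17. Copies with high means thus ran from -1.45 to 5.49 and did not share a direction. For 14 of the 23 the lower derived level was under 1, 13 of them called higher in C.

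Against 89.4% called over all listed genes, the 7SL family, the most numerous, had 56 of 66 listed members called, 44 toward C and 12 toward V. Every one was a pseudogene copy by name; RN7SL1, RN7SL2 and RN7SL3, which encode the RNA of the signal recognition particle, were not listed. RN7SL396P had the highest derived level in C of all 150 members per kilobase, 191753. It was listed in the authors' deposited table with a mean of 28764 and 5.88 ± 0.59 (adjusted p = 3.33e-22), for 56567 in C and 961 in V. RN7SL752P was listed there with 7111 and 6.32 ± 0.21 (14045 in C, 176 in V). RN7SL381P holds no run of 50 bases found in the transcripts of a gene elsewhere. It lies inside GSE1 on the same strand, which the search left out. RN7SL381P had a mean of 1684 and 6.01 ± 0.13 in the authors' deposited table (3317 in C, 51.6 in V). RN7SL736P, at 5.66 ± 0.22, was listed in the authors' deposited table with a mean of 1534, or 3009 in C and 59.4 in V. RN7SL396P alone made up 71.3% of the summed derived level of the 7SL members in C.

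Other 7SL copies with high means went toward V. RN7SL5P was listed in the authors' deposited table with a mean of 1256 and -2.23 ± 0.35 (440 in C, 2072 in V; adjusted p = 6.7e-10). RN7SL674P was listed there with 591 and -6.46 ± 0.57 (13.3 in C, 1169 in V; adjusted p = 4.14e-28). RN7SL296P has no 50-base run in common with the transcripts of a gene elsewhere and lies inside no gene on its strand. It was listed with 112 and -6.81 ± 1.13 in the authors' deposited table (1.97 in C, 222 in V, adjusted p = 1.01e-08). Of the 9 copies with means of 100 or more, 6 were called toward C and 3 toward V. Of these 9, 5 held a run of 50 bases of RN7SL1, RN7SL2 or RN7SL3, whereas none of the 57 copies with lower means did. RN7SL5P held such a run over 58.8% of its 50-base windows, RN7SL674P over 15.0%, RN7SL396P over 11.4%, RN7SL752P over 5.04% and RN7SL151P over 0.855%. Those 5 included both directions, since RN7SL151P was listed at 2.50 ± 0.17 in the authors' deposited table.

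Among the Y RNAs the listed annotated genes and the copies had opposite listed signs, although reads of RNY3 cannot be told from those of other genes. RNY3 was called at -5.01 ± 1.41 in the authors' deposited table (0.350 in C, 11.3 in V; adjusted p = 0.00129) and RNY4 at -4.08 ± 1.73 (0.173 in C, 2.92 in V; adjusted p = 0.0424). Both had low means, 5.81 and 1.55, and derived levels in C under 1, so the size of these changes is poorly determined. All 12 copies had positive fold changes, and 9 of them were called, against 89.4% called over all listed genes. The Y_RNA copy on chromosome 19 starting at 11408772 stood in the authors' deposited table at 7.59 ± 0.68 (321 in C, 1.66 in V), the one on chromosome 2 starting at 201808681 at 5.28 ± 0.74 (54.8 in C, 1.40 in V) and RNY1P16 at 3.56 ± 0.53 (45.9 in C, 3.89 in V). The copy on chromosome 12 starting at 42454720 had the highest mean of the class, 411. It was not called, with 1.81 ± 0.86 and an adjusted p of 0.0780 in the authors' deposited table (639 in C, 183 in V). This copy is 97.1% identical to RNY3, and 84.9% of its stretches as long as a read also occur in other genes. The share of such stretches was 100% for RNY3 and 12.8% for RNY4. Of the 14 Y RNAs, 8 had none, all of them copies. The negative sign of RNY3 therefore cannot be assigned to its own locus. RNY1 and RNY5 were not listed.

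The U3 and U7 members were few. U3, the small nucleolar RNA that guides ribosomal RNA cleavage, had 1 copy called higher in V, listed in the authors' deposited table at -2.06 ± 0.51 (6.55 in C, 27.3 in V) and 1 called higher in C at 4.21 ± 1.70 (3.08 in C, 0.167 in V). The copies of U7, the RNA of histone messenger 3′-end processing, were listed with means of at most 2.66 and not called. At the threshold itself, the adjusted p values in the authors' deposited table were 0.0486 for RNVU1-22 and 0.0497 for a Y_RNA copy on chromosome 11 just inside it, and 0.0507 for RNU6-82P and 0.0529 for the U2 copy starting at 43284139 just outside.

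**Figure D3:**
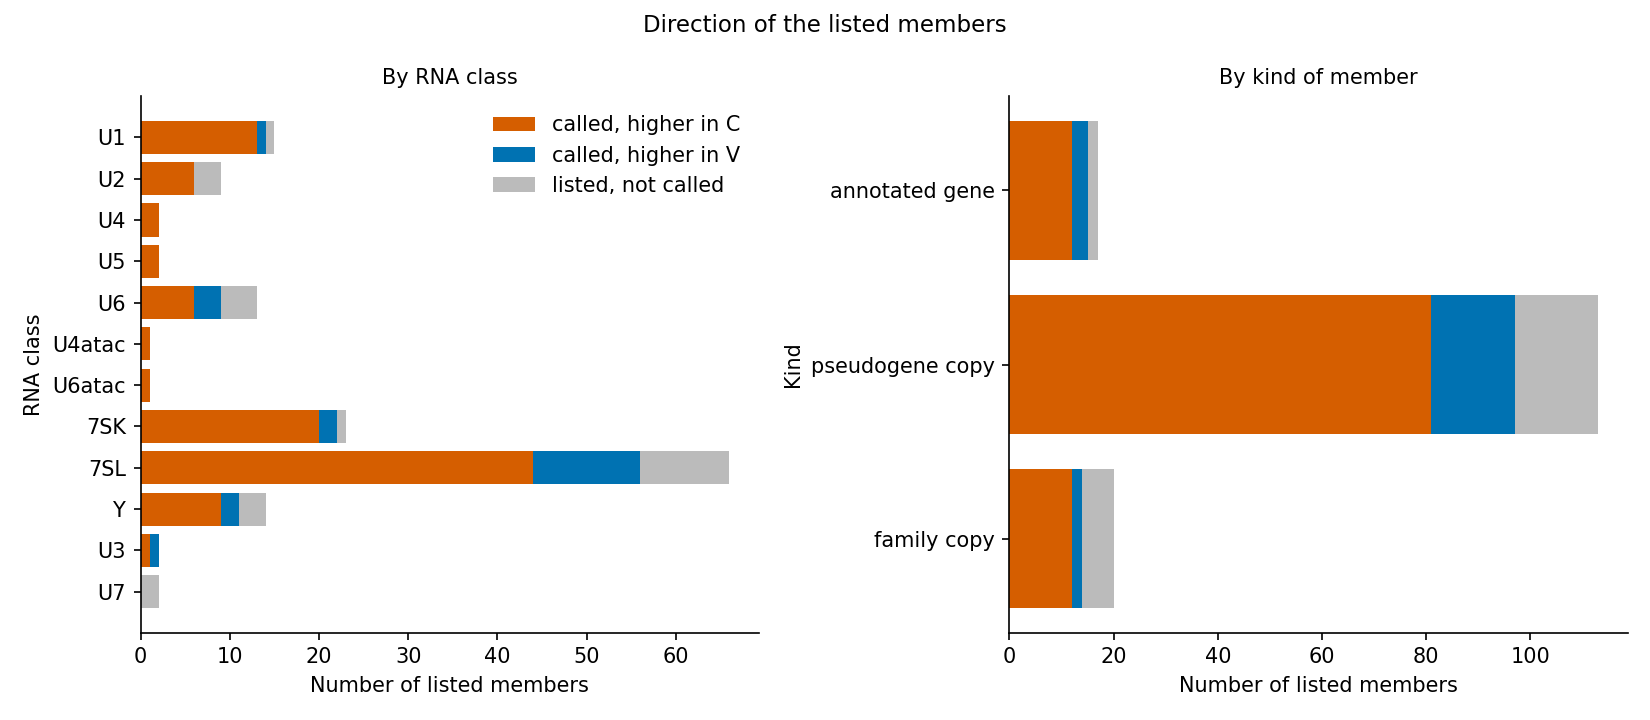
Bars give the number of listed members (x axis) of each RNA class at left and of each kind at right, divided into those called higher in C, called higher in V and not called. The 7SL class is the largest, with 44 members called toward C and 12 toward V; U6 has the most even division of the spliceosomal classes, 6 against 3.

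Annotated genes and pseudogene copies were then compared. Of the 17 listed annotated genes, the authors' deposited table gave calls toward C for 12 and toward V for 3. Of 113 copies whose symbols name them as pseudogenes, 81 were called toward C and 16 toward V, and of 20 copies with only a family name, 12 and 2. Calls toward C thus made up 80.0% of those for annotated genes, 83.5% for pseudogene copies and 85.7% for family copies, with no test between them since copies share reads. For comparison, 2771 of 5380 calls over all listed genes were toward C, and 1791 of 2578 over those other than protein-coding ones. The order of the kinds turned where the listed mean had to reach 10, to 100% for annotated genes and 77.1% for pseudogene copies. The order may also depend on taking the kind from the symbol. It was kept when members were divided by identity to the annotated gene instead, with 80.0% at 95% identity or more and 84.2% below. The annotated genes include RNVU1-22, called toward V, and RNVU1-33, called toward C, both of which RefSeq types as pseudogenes. The kinds also differed in class, since 66 of the 113 pseudogene copies were 7SL and 22 were 7SK, classes with no annotated gene listed. The listed mean had a median of 50.0 for annotated genes and 6.23 for pseudogene copies, and the median standard error was 0.63 against 1.08. The median log2 fold change was 2.59 for annotated genes and 3.70 for pseudogene copies, but the lower derived level was under 1 in 3 of 17 genes and in 66 of 113 copies. GENCODE release 29 holds 65 annotated genes that meet the rule, so 48 were not listed.

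Listing itself differed between classes. Of the genes that GENCODE release 29 assigns to each class, the authors' deposited table held 66 of 680 in the 7SL family (9.71%), 23 of 301 in the 7SK family (7.64%), 15 of 145 for U1 (10.3%) and 9 of 90 for U2. It held 13 of 1310 for U6 (0.992%) and 14 of 812 for the Y RNAs (1.72%). Over all GENCODE genes the share was 10.1%. The mean a gene needs to enter the list is not known, so these shares describe the table and not expression.

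Shared sequence was more frequent at higher listed means. A read of 50 bases cannot tell apart loci that have the same 50 bases. Each member was therefore cut into all its 50-base windows and matched to the GENCODE transcripts of every gene that does not overlap it. Only exact matches were counted. Whether the authors' alignment allowed mismatches is not given in the sources used here, so a member without a shared window may still receive reads of its relatives. A window in common with another gene occurred in 24 of 94 members with means under 10 (25.5%), in 13 of 32 with means from 10 to 100 (40.6%) and in 21 of 24 with means of 100 or more (87.5%). Unspliced sequence of other genes was not searched, and genes that overlap a member, its hosts included, were left out. The 3 of those 24 without any were RN7SL381P, RNU1-67P and RN7SL296P, the first 2 inside a protein-coding gene on the same strand; they were listed in the authors' deposited table at 6.01, 8.36 and -6.81. How the authors' counting assigned reads with several matches is not given in the sources used here, so the value of a single copy with shared windows is uncertain. Among the 92 members with no shared window, 65 were called toward C and 12 toward V, and among the 18 whose every window was shared, 10 and 3. The median standard error was 1.36 below a mean of 10, 0.55 from 10 to 100 and 0.35 above.

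**Figure D4:**
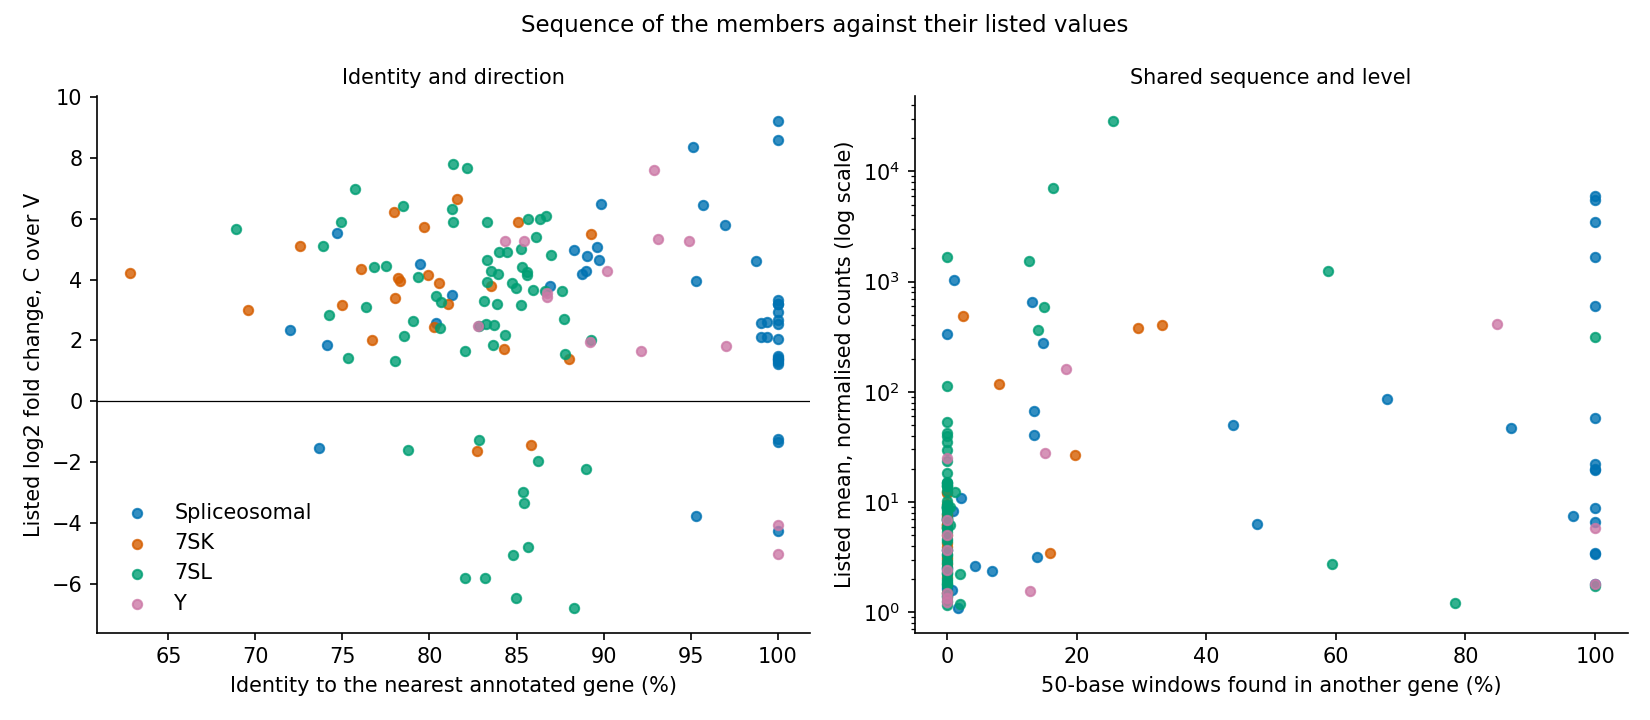
At left, the identity of each member to its nearest annotated gene (x axis, percent) is set against its listed log2 fold change of C over V; at right, the share of its 50-base windows found in another gene (x axis, percent) is set against its listed mean in normalised counts (log scale). U3 and U7 are left out. At right, 3 members with means of 100 or more lie at 0%, and at left the 12 identical copies named in the text lie at 100% on both sides of zero.

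Position inside other genes was checked because reads of a host transcript can be counted for a copy within it. On the same strand, 78 of the 150 members lay inside another gene, 71 of them inside a protein-coding gene, and 13 inside a gene that was itself listed. Of these 13 pairs, 6 had the same direction in the authors' deposited table; where both were called, 4 of 11 did. Of the members opposed to their host, RN7SL674P had the highest mean of its own; it stood at -6.46 inside GREB1, an androgen- and oestrogen-induced gene listed at 2.35 ± 0.12 in the authors' deposited table (516 in C, 102 in V). RN7SL838P, at 6.97 ± 0.90, lay inside ANO9, a membrane protein gene listed at -2.06 ± 0.33. Calls higher in C made up 53 of 63 for members inside a gene on the same strand, 16 of 18 for those inside a gene on the opposite strand only, and 36 of 45 for those inside no other gene. Over all listed genes they made up 2771 of 5380, and 1791 of 2578 over those other than protein-coding ones.

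Genes of the proteins that make, carry or bind these RNAs were looked up by list. The share of all protein-coding genes that the table lists was not computed, so the number listed has no comparison. Of 182 genes in 11 lists, 11 were in the authors' deposited table and called, 6 toward C and 5 toward V; of all listed protein-coding genes 92.6% were called, 31.6% toward C and 61.0% toward V. The Sm and LSm proteins, which form rings on spliceosomal RNAs, had 2 of 18 called, SNRPF (1.91 ± 0.15 in the authors' deposited table) and SNRPB (1.32 ± 0.10), both higher in C. SNRPA, the U1 A protein and 1 of 32 proteins specific to single particles, was listed there at 1.24 ± 0.11. GEMIN4, part of the SMN complex that loads the Sm ring, was 1 of 21 assembly and transport genes, at 1.31 ± 0.09 in the authors' deposited table. In the list of RNA polymerase III and its factors, 2 of 25 were called: BDP1, a subunit of the initiation factor TFIIIB, at 1.44 ± 0.07, and the polymerase subunit POLR3C at -2.50 ± 0.12 in the authors' deposited table. Their derived levels were 3777 in C and 1388 in V for BDP1, and 116 in C and 655 in V for POLR3C, so the 2 genes of the list were opposed.

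Toward V lay AFF1, a scaffold of the super elongation complex that takes up P-TEFb, at -1.58 ± 0.09 in the authors' deposited table, the only called gene of 10 in the 7SK and P-TEFb list. IFIT5, an interferon-induced protein that binds RNA ends, was the only one of 9 Y RNA and La binding genes, at -4.68 ± 0.24 in the authors' deposited table (15.3 in C, 391 in V). The vault genes MVP, the major vault protein, and TEP1 were listed there at -4.41 ± 0.26 and -2.13 ± 0.15, 2 of 3 in their list. EXOSC2, a cap subunit of the RNA exosome, was 1 of 22 nuclear decay genes, at 1.27 ± 0.10 in the authors' deposited table. None of the 24 genes for transcription and 3′ processing of small nuclear RNAs, the 8 of the signal recognition particle or the 10 of RNase P and RNase MRP was listed.

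Defining markers of the labelled prostate cells were checked in the same table. KLK2 and KLK3, kallikreins made by prostate luminal cells, and the keratin KRT8 were the 3 of 10 markers listed in the authors' deposited table, the kallikreins higher in C and KRT8 higher in V; their summed derived levels were 19332 in C and 7545 in V. Of 6 leukocyte markers 3 were listed, all higher in V, with summed levels of 0.718 in C and 61.4 in V. Of 4 endothelial markers 2 were listed, also higher in V (0.327 in C, 28.3 in V), and of 5 fibroblast markers 2, one in each direction (82.5 in C, 297 in V). The part of these genes in the results on small RNAs was not tested.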

How the data were processed

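RNA sequencing of 6 libraries, 3 for each of 2 cell lines, is represented by 1 table of the authors' own DESeq2 comparison, with no column per library. Per the file headers, the authors give for each gene a signal (the mean normalised count of all libraries), a maximum likelihood log2 fold change, 2 scores (its standard error and the Wald statistic), and a p-value with its Benjamini-Hochberg adjustment. The submitters' processing notes name FastQC and Cufflinks 2.2.1; their roles, the aligner, counter, build and annotation were not given in the sources used here.

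Members were selected by symbol and matched to GENCODE release 29 (GRCh38) by Ensembl identifier. A symbol ending in P after its copy number, or of the form RN7SKP and a number, marked a pseudogene copy; a bare family name marked a family copy; 129 of 150 had a RefSeq type. Identity came from global alignment (match 2, mismatch -3, gap opening -5, extension -2) with Biopython 1.88 in Python 3.11.15, tested on simulated data. Named were all annotated genes, the 3 called copies of highest mean per class and direction, those nearest the threshold, and up to 4 called genes per partner list. RN7SL736P, RN7SL151P, RN7SL838P, RNU1-18P, RNU1-88P, RNU6-12P, the hosts, the Y_RNA copy on chromosome 12 and the remaining U2 copies were chosen after their values were seen. The members and lists were chosen with earlier results of these data known. Alternatives varied the adjusted p, fold, mean, interval, host, class and symbol rules; no test was added to the authors' own. Some sequences are not reported here.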

Additional observations from a re-analysis of the deposited data

How the results depend on the processing

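The table has no value per library, so leaving out each replicate could not be run. No paired analysis was possible because the table has no column per library. Results rest on a list already limited by p and fold, and copies that share sequence are not independent. Of 80 alternative values for counts and shares, 59 stayed near the reported one. Members called higher in C numbered 105 and fell to 43 when the listed mean had to reach 10 and to 19 when it had to reach 100; those higher in V went from 21 to 10 and 4, and to 10 when the 95% interval had to lie beyond 1. Restrictions chosen after seeing the data gave 65 and 12 for members with no shared 50-base window, and 51 and 13 without members whose lower derived level was under 1. Fewer members enter under each of these. The share of calls higher in C moved for spliceosomal RNAs from 88.6% to 100% (mean of at least 100) and for 7SK from 90.9% to 100% (absolute log2 fold change of at least 2, interval beyond 1, or no shared window), but to 71.4%, 75.0% and 77.8% with a mean of at least 10, of at least 100, and with no low level. For 7SL it went from 78.6% to 66.7% with a mean of at least 100. For Y RNAs it moved from 81.8% to 100% (mean of at least 10 or 100, no shared window, or no low level), since RNY3 and RNY4 drop out, and for annotated genes from 80.0% to 100% (mean of at least 10 or 100). For pseudogene copies it moved from 83.5% to 77.1% and 73.3% under the same 2 limits, so the order of the kinds turned; it also turned with an adjusted p under 0.01 (90.9% against 83.8%), the interval beyond 1 (88.9% against 88.4%) and no low level (91.7% against 76.7%). Partner genes higher in C went from 6 to 0, and those higher in V from 5 to 4, when the absolute log2 fold change had to reach 2, so the majority turned. The listed fold changes are the same under each alternative, so no gene changed direction. Adding 4 rows that only the description assigns to these families brought 3 calls higher in C and 1 higher in V.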
